A study of Mus musculus with 31 samples.

Results

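The genes of collagens, laminins and nidogens build most of the fibrous and sheet-like matrix around cells, and 54 of the 17306 rows of the mouse tumor table carried a symbol of these families. Within these families rows were taken by symbol alone, but the families and their classes were chosen with earlier results of these data known. The 54 genes fell into 11 fibrillar collagens, 25 other collagens and 18 basement membrane genes, the last group being the type IV collagens, the laminin chains and both nidogens. RNA of 31 mouse neuroblastomas, tumors of the sympathetic nervous system, was hybridized to Affymetrix arrays, with 1 array per tumor. All 31 tumors carried the *TH-MYCN* transgene, in which the tyrosine hydroxylase promoter drives human *MYCN* in sympathetic cells. In 10 tumors *Alk*, a receptor tyrosine kinase, was wild-type (*MYCN* tumors), in 10 the mice carried a knock-in *Alk* allele with the R1279Q mutation and in 11 one with the F1178L mutation, both referred to as *MYCN*/*Alk*. Each mutation came from 1 knock-in line, and these 2 alleles correspond to changes that activate ALK in patients. The labels give the strain of every tumor as 129S2 or 129B6F1 without saying which, and a table of the study gave the background of 18 *MYCN*/*Alk* tumors, 9 of each. The 129B6F1 mice of that table were mostly older at sacrifice, so that background and age cannot be told apart there, and which strain the *MYCN* tumors came from is not stated. Nor is it stated whether some tumors came from the same mouse, in which case the p values would be too small.

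Collagens are made of 3 chains wound around each other. The fibrillar ones assemble into the ropes of connective tissue, whereas type IV collagen forms a net that, with laminin trimers of an alpha, a beta and a gamma chain and with nidogens as linkers, makes the basement membrane under endothelium and around pericytes, Schwann cells and muscle. In neuroblastoma most of this matrix is known to come from stroma and vessels, but nerve-related cells make some of it as well. In whole tumors, fewer cells of a type and less RNA per cell cannot be told apart.

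Sequences upstream of the genes that turned out to differ most are shown to give the places at which their transcripts start. RefSeq windows on GRCm38.p6 were at hand for 39 of the 54 genes, 43 windows in all because some genes have several starts. The 250 bases before the first transcribed base are printed in lower case for *Col24a1* (chr3:145292222-145292471, plus strand) and for both starts of *Col9a1* (chr1:24177360-24177609 and chr1:24194953-24195202, plus strand), the 2 collagen genes with the largest rises below. Capitals mark matches to the E-box CACGTG that MYC and MYCN proteins bind, to the TATA box TATAAA, to the box CCAAT or to the SP1-type box GGGCGG, searched on both strands and not overlapping here.
*Col24a1* upstream: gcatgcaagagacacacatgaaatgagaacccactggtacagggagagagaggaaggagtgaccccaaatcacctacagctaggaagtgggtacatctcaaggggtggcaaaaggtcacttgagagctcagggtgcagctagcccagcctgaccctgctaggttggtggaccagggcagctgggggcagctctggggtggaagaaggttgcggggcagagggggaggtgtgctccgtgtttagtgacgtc
*Col9a1* upstream, first start: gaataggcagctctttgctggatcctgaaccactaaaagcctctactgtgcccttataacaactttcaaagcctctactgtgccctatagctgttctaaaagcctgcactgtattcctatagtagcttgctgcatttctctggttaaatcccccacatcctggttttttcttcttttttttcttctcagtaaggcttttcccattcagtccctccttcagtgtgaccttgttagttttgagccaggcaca
*Col9a1* upstream, second start: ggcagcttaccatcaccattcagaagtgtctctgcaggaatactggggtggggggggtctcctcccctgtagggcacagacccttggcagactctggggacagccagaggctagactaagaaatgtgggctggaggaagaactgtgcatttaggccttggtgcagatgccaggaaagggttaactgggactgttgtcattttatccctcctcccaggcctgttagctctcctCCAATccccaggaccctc
None of the 4 motifs lay in the *Col24a1* window or in that of the first *Col9a1* start, and the second start held a single CCAAT motif. The E-box CACGTG was in 0 of the 43 windows of these families against 6.02% of 32851 windows of all genes. The box CCAAT was in 34.9% of the family windows and 33.8% of all, the TATA box in 11.6% and 12.4%, and the motif GGGCGG in 55.8% and 32.7%. These are matches of letters in a fixed window and say nothing about binding. The type IV genes *Col4a1* and *Col4a2* lie head to head on chromosome 8. Their annotated first bases are 21 bases apart and their transcripts run in opposite directions, so that both begin within the same 22 bases (chr8:11312805-11312826, plus strand, no capitals used).
*Col4a1* and *Col4a2* shared start: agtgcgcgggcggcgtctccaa

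Expression is given as the log2 values that the authors normalized and deposited, in which 1 unit is a 2-fold difference and values below about 4 cannot be told from background. Rows without a symbol could not be searched, so that genes of these families may be among them. Of the 54 genes, 20 were below log2 4 in every tumor. These were *Col2a1* and *Col11a2* among fibrillar collagens, *Col6a4*, *Col6a5*, *Col8a2*, *Col9a2*, *Col10a1*, *Col13a1*, *Col17a1*, *Col19a1*, *Col22a1*, *Col23a1*, *Col25a1* and *Col26a1* among the others, and *Col4a6*, *Lama1*, *Lama3*, *Lama5*, *Lamb3* and *Lamc3* in the basement membrane group. A further 8 rose above it in too few tumors to be tested, namely *Col27a1*, *Col15a1*, *Col20a1*, *Col9a3*, *Col4a3*, *Col4a4*, *Col4a5* and *Lama2*. The 26 genes above log2 4 in at least 10 tumors, 8 fibrillar, 10 other and 8 basement membrane, were tested among 9322 rows with limma, which fits all 3 groups together and steadies each gene's spread with that of all genes. Adjustment over all 9322 rows followed Benjamini and Hochberg, and an adjusted p under 0.05 was the threshold. Because there were 21 *MYCN*/*Alk* tumors and 10 *MYCN* tumors, a gene seen in *MYCN*/*Alk* tumors alone passed this filter more readily than a gene seen in *MYCN* tumors alone.

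The array medians lay between 4.22 and 4.66, and neuroblast markers such as *Th* and *Dbh* were above log2 4 in all tumors. *MYCN* tumor 22 stood apart by markers of kidney cells, of which 11 had a mean level of 9.69 there and 2.57 to 3.08 in the other 30 tumors. The kidney tubule genes *Umod* and *Slc12a1* reached 14.55 and 13.76 in it. Calls lost without this tumor are named below. *MYCN* tumor 25 had a mean of 3.26 over 7 adrenal cortex markers, against at most 2.25 in the other tumors, with *Hsd3b1*, an enzyme of steroid synthesis, at 6.34. R1279Q tumor 8, of the 129B6F1 background, had the highest mean of endothelial markers, 5.69, and of pericyte and smooth muscle markers, 6.44, of all 31 tumors.

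In *MYCN*/*Alk* tumors, the question was whether activated *Alk* goes along with another matrix in tumors driven by *MYCN*. With each mutation given equal weight, 4 of the 26 genes tested rose (*Col24a1*, *Col9a1*, *Col16a1* and *Col7a1*) and 3 fell (*Col4a1*, *Col4a2* and *Nid2*), while 19 did not pass the test. The share of all tested rows past the threshold was 40.7% in either direction, 19% higher and 21.6% lower, and whether the matrix genes differ from other rows in this was not tested. Their median log2 difference was -0.09, against -0.04 for all rows tested. By class, 1 of 8 fibrillar collagens and 3 of 10 other collagens rose and none fell, and 3 of 8 basement membrane genes fell and none rose. The medians were 0.12, 0.03 and -0.37.

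**Figure D1:**
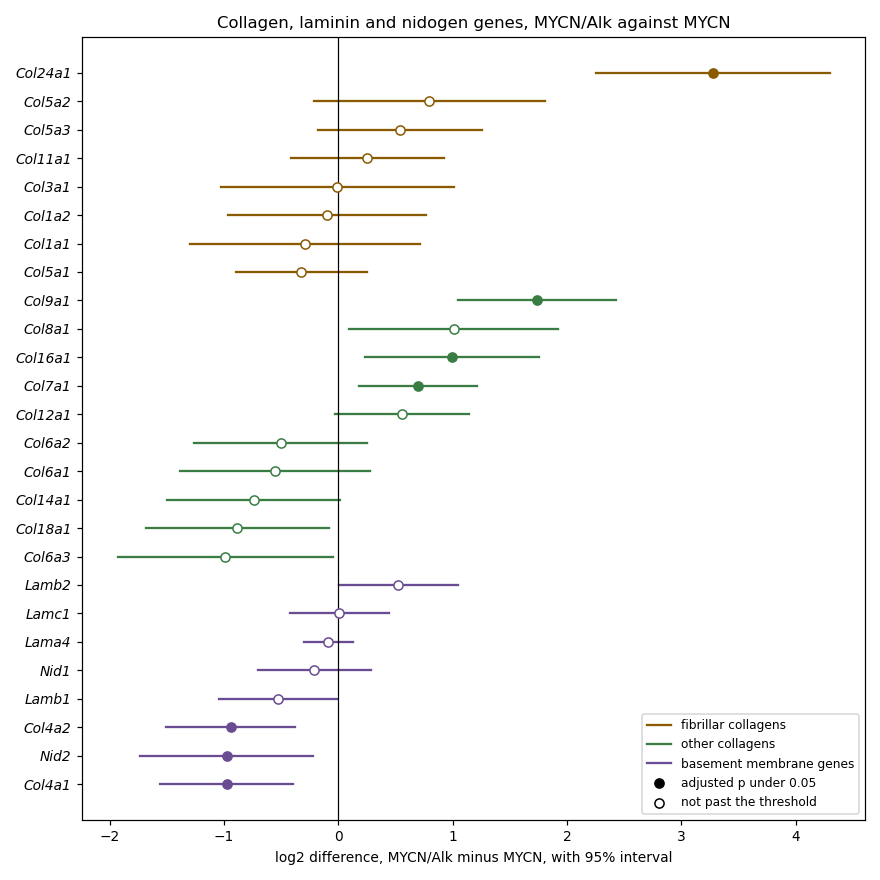
Log2 difference in expression, *MYCN*/*Alk* minus *MYCN* (x axis), with its 95% interval from limma, for the 26 genes tested (y axis), coloured by class. Filled points passed the threshold: 4 collagen genes to the right of 0 and 3 basement membrane genes to the left.

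*Col4a1* and *Col4a2* encode the chains of the usual type IV collagen, the net of nearly all basement membranes. *Col4a1* was between 9.60 and 11.72 in *MYCN* tumors (median 10.63), between 8.13 and 11.48 in R1279Q tumors (median 9.23) and between 8.69 and 10.98 in F1178L tumors (median 9.83). The 3 groups overlapped, but the R1279Q median was below the lowest *MYCN* tumor and the F1178L median close to it. *Col4a1* fell by 0.98 (SE 0.28, adjusted p = 0.0071, limma). *Col4a2* ran from 8.22 to 10.41 in *MYCN* tumors (median 9.21), from 7.07 to 10.34 in R1279Q tumors (median 7.99) and from 7.67 to 9.86 in F1178L tumors (median 8.50), and fell by 0.94 (SE 0.28, adjusted p = 0.0074, limma). In both genes R1279Q tumor 8 was the highest of its group and at the level of the highest *MYCN* tumors. Without any 1 of the 31 tumors both calls held, and *Col4a1* fell by 0.85 to 1.09.

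These genes rose and fell together from tumor to tumor. Pearson's r between *Col4a1* and *Col4a2* was 0.97 in the 10 *MYCN* tumors, 0.96 in the 10 R1279Q tumors and 0.94 in the 11 F1178L tumors (Spearman's rho 0.98, 0.90 and 0.94, permutation test, adjusted p = 0.00014, 0.00022 and 0.00014 for r and 0.0006, 0.0028 and 0.00063 for rho). Without the 2 tumors farthest from the median of *Col4a1*, r was 0.96, 0.84 and 0.93. The correlations were computed for 36 relations, 27 of them between partner pairs, mostly chains of 1 molecule, and p values were adjusted over all 36.

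**Figure D2:**
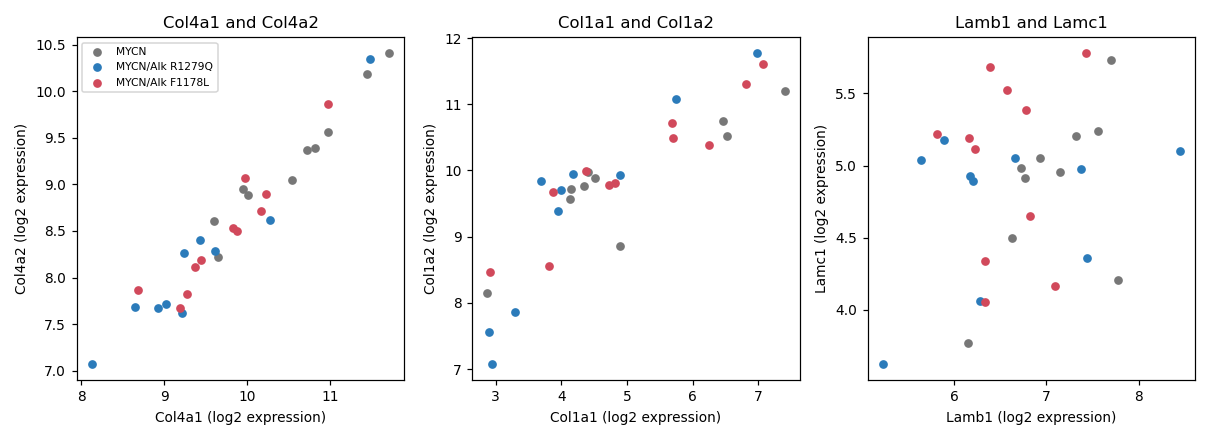
Log2 expression of partner chains against each other, 1 point per tumor, coloured by genotype. *Col4a1* and *Col4a2* lie close to a line in all genotypes, *Col1a1* and *Col1a2* less closely, and *Lamb1* and *Lamc1* are scattered.

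*Nid2*, one of the linkers between the laminin and type IV networks, went the same way at a lower level. It was between 3.19 and 6.78 in *MYCN* tumors (median 4.97), with 8 of 10 above log2 4. In R1279Q tumors it was between 2.92 and 6.55 (median 3.76) and in F1178L tumors between 2.82 and 5.99 (median 3.55), with 4 tumors above log2 4 in each group. Most mutant tumors were thus at background for *Nid2*, and the groups overlapped. The measured log2 difference was -0.97 (SE 0.37, adjusted p = 0.036, limma). With values under the background limit set to log2 4 in *MYCN*/*Alk* tumors, *Nid2* fell by at least 0.59. The call was lost when any of 6 single tumors was left out (*MYCN* tumors 21, 25, 32, 33 and 34 and R1279Q tumor 14), with adjusted p up to 0.097 without *MYCN* tumor 34. It was lost as well when rows were not filtered. *Nid1*, the other linker, ran from 5.09 to 6.53, from 4.24 to 6.37 and from 4.47 to 7.25 in *MYCN*, R1279Q and F1178L tumors, and its difference of -0.21 did not pass (95% interval -0.70 to 0.29, adjusted p = 0.52, limma).

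With all 31 tumors at equal weight, none of the laminin chains tested passed the threshold. *Lamb1* was called lower by limma with array weights, which weigh down tumors far from their group (-0.60, adjusted p = 0.006). It was also called lower with only 129S2 tumors as *MYCN*/*Alk* tumors (-0.75, adjusted p = 0.01). Of the 10 laminin genes found by symbol only *Lama4*, the alpha chain of vessel laminins, *Lamb1* and *Lamb2*, the common beta chains, and *Lamc1*, the common gamma chain, could be tested. *Lamb1* differed by -0.53 (95% interval -1.05 to -0.01, adjusted p = 0.093) and *Lamb2* by 0.53 (95% interval 0.00 to 1.05, adjusted p = 0.10) by limma, in opposite directions. *Lamc1* was at 0.01 (95% interval -0.42 to 0.44) and *Lama4* at -0.09 (95% interval -0.30 to 0.13), close to the background limit in all groups. *Lama2*, the alpha chain of muscle and Schwann cell laminin, was too rarely measured to be tested: it was above log2 4 in 0 of 10 *MYCN*, 3 of 10 R1279Q and 3 of 11 F1178L tumors, at up to 6.94. Partner chains of laminin trimers were compared across tumors too. Between *Lamb1* and *Lamc1* r was 0.54 in *MYCN* tumors, 0.34 in R1279Q and 0.07 in F1178L tumors (rho 0.50, 0.19 and 0.19, permutation test, adjusted p 0.12, 0.36 and 0.83 for r and 0.18, 0.62 and 0.61 for rho). Between *Lama4* and *Lamb1* r was 0.35, 0.77 and 0.54 in the same order (rho 0.33, 0.56 and 0.14, permutation test, adjusted p 0.36, 0.017 and 0.12 for r and 0.39, 0.13 and 0.69 for rho), and without the 2 farthest tumors it was -0.36, 0.33 and 0.017, so that the R1279Q relation rested on those tumors. A difference between these pairs and the type IV pair was not tested.

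Markers of vessel cells moved with the fall of *Col4a1*, *Col4a2* and *Nid2*. Of 12 endothelial markers 6 were tested and 5 were lower in *MYCN*/*Alk* tumors (median log2 difference -1.11), among them *Emcn* and *Esam*. Of 12 pericyte and smooth muscle markers 8 were tested and 7 were lower (median -1.36), among them *Rgs5* and *Notch3*. The mean level of the endothelial list ran from 3.95 to 5.61 in *MYCN*, from 3.43 to 5.69 in R1279Q and from 3.33 to 4.29 in F1178L tumors, and that of the pericyte list from 4.88 to 6.06, from 3.58 to 6.44 and from 4.05 to 5.68. *Tie1* and *Anpep* were below log2 4 in every tumor. These levels are means over the whole list, whereas the relations to *Col4a1* used the mean of the tested markers alone, 6 endothelial and 8 pericyte. Within *MYCN* tumors *Col4a1* went with this pericyte mean (r = 0.92, rho = 0.87, permutation test, adjusted p = 0.00095 and 0.0062) and less closely with the endothelial mean (r = 0.38, rho = 0.53, adjusted p = 0.32 and 0.16). In R1279Q tumors r was 0.76 with the pericyte and 0.79 with the endothelial mean (rho 0.61 and 0.39, adjusted p = 0.037 and 0.038 for r and 0.096 and 0.31 for rho, permutation test). In F1178L tumors r was 0.32 and 0.64 (rho 0.41 and 0.61, adjusted p = 0.36 and 0.046 for r and 0.25 and 0.085 for rho, permutation test). Without the 2 tumors farthest from the median, R1279Q tumors gave r of 0.35 and 0.06, so that their relation rested on those tumors. Other markers moved in the same comparison. Of 12 macrophage markers 9 were tested and 6 were lower (median -0.68), with list means of 6.04 to 7.34 in *MYCN*, 5.70 to 7.43 in R1279Q and 5.40 to 6.77 in F1178L tumors and *Fcgr1* below log2 4 in every tumor. Of 12 Schwann cell and precursor markers 9 were on the array, 3 were tested and 2 were higher, *Fabp7* and *Pmp22* (median 0.74), with list means of 3.23 to 3.82, 3.44 to 4.84 and 3.59 to 5.55, while *Sox10*, *S100b*, *Erbb3*, *Gfap* and *Sox2* were below log2 4 in every tumor. Of 8 neuroblast markers 7 were tested and 4 were higher, *Th*, *Dbh*, *Isl1* and *Slc18a2* (median 0.60), with list means of 8.32 to 9.80, 9.14 to 10.34 and 9.22 to 10.78. The part of any of these cells in the fall of the basement membrane genes or in the rises of collagen genes was not tested.

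**Figure D3:**
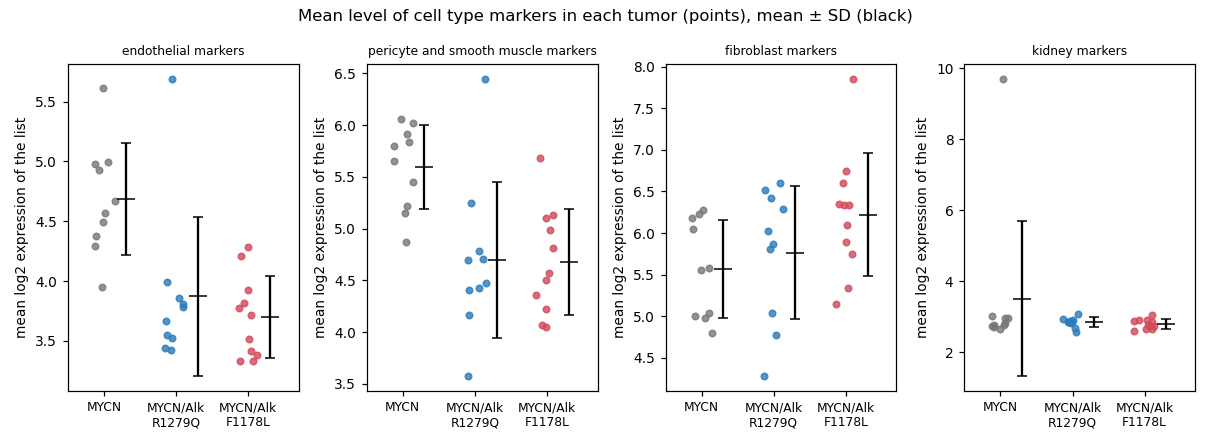
Mean log2 expression of each marker list (y axis) in every tumor (points) by genotype, with mean and SD in black. Endothelial and pericyte markers are lower in most *MYCN*/*Alk* tumors, R1279Q tumor 8 is at the top of both, and *MYCN* tumor 22 alone has kidney markers, at 9.69.

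Among fibrillar collagens, *Col24a1*, a minor chain found in bone and cornea, stood apart from the rest. It was below log2 4 in all 10 *MYCN* tumors (2.72 to 3.14, median 2.92). In R1279Q tumors it was between 2.88 and 8.14 (median 5.70), with 8 of 10 above log2 4, and in F1178L tumors between 3.60 and 9.58 (median 6.40), with 10 of 11 above. Every F1178L tumor was above the highest *MYCN* tumor, although the lowest of them, tumor 38, was itself under the limit, and 2 R1279Q tumors, 9 and 24, remained at the *MYCN* level. *Col24a1* was measured 3.28 higher on the log2 scale in *MYCN*/*Alk* tumors (SE 0.50, adjusted p = 9.6e-06, limma), and at least 2.18 higher with the *MYCN* level put at the background limit. All 18 tumors that carried this gene past the filter were *MYCN*/*Alk* tumors, so that its place among the genes tested already required it to be higher there. Leaving out any 1 tumor kept the call, with a difference of 3.13 to 3.44.

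The abundant fibrillar collagens *Col1a2* and *Col3a1* showed no such difference. *Col1a2*, a chain of the main collagen of connective tissue, was between 8.14 and 11.20 in tumors without an *Alk* mutation, between 7.07 and 11.78 in R1279Q and between 8.46 and 11.60 in F1178L tumors (medians 9.83, 9.77 and 9.99). Its difference was -0.10, with a 95% interval of -0.97 to 0.77 that leaves room for nearly a 2-fold change either way. *Col3a1* of blood vessel walls and skin was at -0.01 (95% interval -1.03 to 1.01). *Col1a1* was measured far lower, with medians of 4.46, 3.98 and 4.82 in *MYCN*, R1279Q and F1178L tumors. It was above log2 4 in 9 of 10, 5 of 10 and 8 of 11 of them and differed by -0.29 (95% interval -1.29 to 0.71). Its relations to other genes below thus rest in part on values under the background limit. The other 4 fibrillar genes tested, *Col5a1*, *Col5a2*, *Col5a3* and *Col11a1*, ran from -0.32 to 0.80. The wide intervals came from a wide spread inside each genotype, as in *Col3a1*, which ran from 6.34 to 10.72 in R1279Q and from 6.42 to 11.23 in F1178L tumors.

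Chains of types I and III shared this spread in all 3 genotypes, and those of type V in part. *Col1a1* and *Col1a2*, which form 1 molecule, had r of 0.87 in *MYCN* tumors, 0.91 in R1279Q and 0.94 in F1178L tumors (rho 0.79, 0.94 and 0.94, permutation test, adjusted p = 0.0028, 0.00058 and 0.00022 for r and 0.02, 0.0016 and 0.00065 for rho), and without the 2 farthest tumors r was 0.78, 0.87 and 0.89. *Col1a1* with *Col3a1*, chains of different molecules, gave r of 0.79, 0.85 and 0.96 (rho 0.78, 0.90 and 0.96, adjusted p = 0.013, 0.0047 and 0.00014 for r and 0.023, 0.0028 and 0.0006 for rho). *Col5a1* with *Col5a2*, which form 1 molecule, gave r of 0.78 and 0.80 in *MYCN* and R1279Q tumors and 0.35 in F1178L tumors (rho 0.70, 0.64 and 0.22, permutation test, adjusted p = 0.013, 0.0072 and 0.33 for r and 0.057, 0.086 and 0.57 for rho), and without the 2 farthest tumors 0.47, 0.76 and 0.52. A difference in r between genotypes was not tested. Over all partner pairs, 20 of 27 relations were past the threshold by r, and 15 of them by both r and rho. These pairs include *Col1a1* with *Col3a1* and *Nid1* with *Nid2*, which are not chains of 1 molecule. Other pairs of genes were not computed, so that whether partner pairs differ from them was not tested. Only the 6 F1178L tumors of 129B6F1 were enough to look within 1 background, where r of *Col4a1* with *Col4a2* was 0.85 (rho 0.77, exact permutation test, p = 0.058 and 0.10, not adjusted) and r of *Col1a1* with *Col1a2* was 0.91 (rho 1, exact permutation test, p = 0.0028 and 0.0028, not adjusted).

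Fibroblast markers gave the values beside which the fibrillar genes are to be read. Of 12, 11 were on the array, 8 were tested and 1 was higher in *MYCN*/*Alk* tumors (*Postn*, a matrix protein of activated fibroblasts), with a median difference of 0.91. The mean of the list ran from 4.79 to 6.28 in *MYCN*, from 4.28 to 6.60 in R1279Q and from 5.14 to 7.85 in F1178L tumors, and *Pdgfra* was below log2 4 in every tumor. With the mean of the 8 tested markers alone, *Col1a2* had r of 0.65, 0.92 and 0.76 in the same order of genotypes (rho 0.70, 0.84 and 0.66, permutation test, adjusted p = 0.051, 0.0013 and 0.013 for r and 0.057, 0.0094 and 0.057 for rho). Without the 2 farthest tumors r was 0.78, 0.86 and 0.45.

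The other collagens held the remaining rises. *Col9a1*, a chain of the cartilage collagen that decorates type II fibrils, was between 2.75 and 4.74 in *MYCN* tumors (median 3.21), with tumor 26 alone above log2 4. It was between 2.79 and 6.44 in R1279Q tumors (median 5.0, 8 of 10 above log2 4) and between 3.47 and 6.39 in F1178L tumors (median 5.52, 10 of 11 above). Of the 21 *MYCN*/*Alk* tumors 15 were above *MYCN* tumor 26, and low tumors remained in both mutant groups. The measured difference was 1.74 (SE 0.34, adjusted p = 0.00019, limma) and at least 1.05 with the *MYCN* values under the limit put at log2 4. Its partner chain *Col9a3* was above log2 4 in 9 tumors, 4 of them *MYCN* tumors, and *Col9a2* in none, so that neither could be tested.

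*Col16a1*, which sits at the edge of fibrils and of basement membranes, was measured above background in all 31 tumors. It ran from 4.28 to 6.11 in *MYCN* (median 5.62), from 4.02 to 7.78 in R1279Q (median 6.48) and from 4.95 to 8.10 in F1178L tumors (median 6.78), and 15 of the 21 *MYCN*/*Alk* tumors exceeded every *MYCN* tumor. The log2 difference was 1.0 (SE 0.37, adjusted p = 0.033, limma). It lost the call when *MYCN* tumor 21, 22, 23 or 33 was left out (0.88 to 0.97, adjusted p = 0.054 to 0.071). *Col7a1*, the anchoring fibril of skin, was close to background throughout. It ran from 2.91 to 4.59 in *MYCN* (median 3.55, 2 tumors above log2 4), from 3.46 to 6.09 in R1279Q (median 4.03, 5 above) and from 3.42 to 5.58 in F1178L tumors (median 4.32, 8 above). The difference was 0.69 (SE 0.25, adjusted p = 0.029, limma), at least 0.26, and it was lost without *MYCN* tumor 32 or 34 (adjusted p = 0.064 and 0.055). Like *Col24a1*, *Col9a1* and *Col7a1* passed the filter mostly through *MYCN*/*Alk* tumors.

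**Figure D4:**
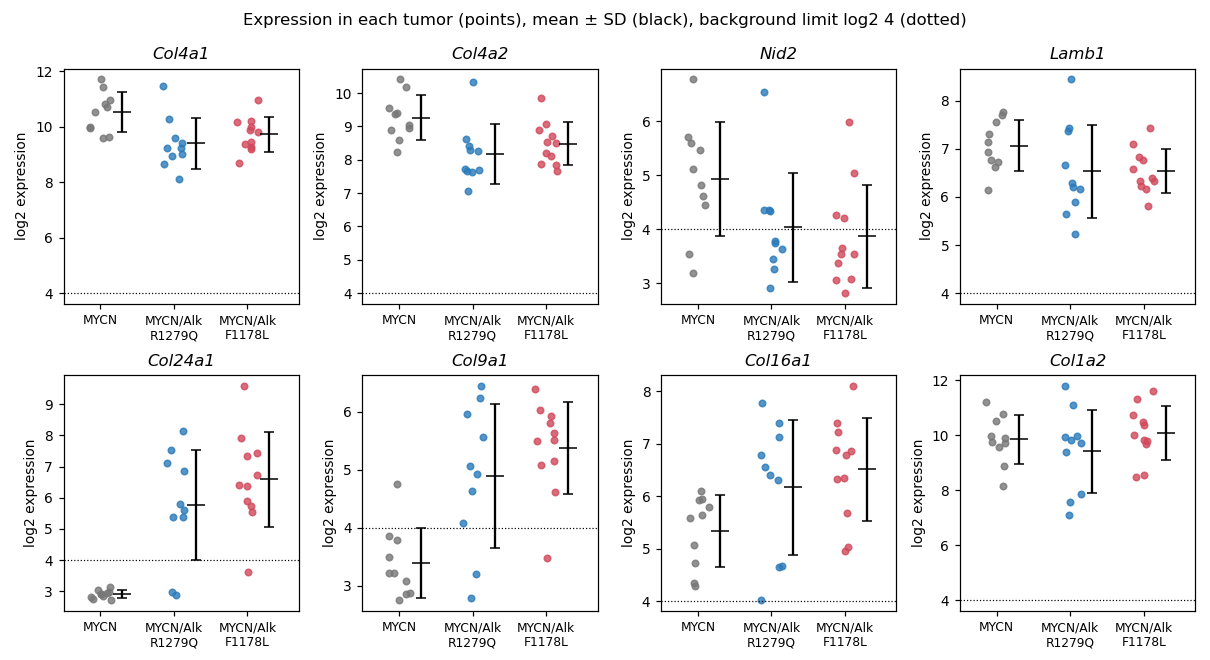
Log2 expression (y axis) of 8 genes in every tumor (points) by genotype, with mean and SD in black and the background limit of log2 4 dotted. *Col4a1*, *Col4a2* and *Nid2* are lower in most *MYCN*/*Alk* tumors, *Col24a1*, *Col9a1* and *Col16a1* higher, and *Lamb1* and *Col1a2* overlap widely.

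The 7 other collagens that did not pass lay on both sides of 0. *Col8a1*, made by endothelium and smooth muscle, differed by 1.01 (95% interval 0.09 to 1.93, adjusted p = 0.071) and *Col12a1*, which coats fibrils, by 0.56 (95% interval -0.03 to 1.14, adjusted p = 0.12) by limma. *Col18a1*, the basement membrane collagen from which endostatin is cut, differed by -0.88 (95% interval -1.68 to -0.08, adjusted p = 0.072), and *Col14a1*, which coats fibrils as well, by -0.74 (adjusted p = 0.11). The 3 tested chains of type VI collagen, a beaded filament near cells, were at -0.56, -0.50 and -0.99 for *Col6a1*, *Col6a2* and *Col6a3* (adjusted p = 0.29, 0.29 and 0.087, limma).

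R1279Q tumor 8 moved several of these values. It was the highest R1279Q tumor at *Col4a1*, *Col4a2*, *Nid1*, *Nid2*, *Lama4*, *Lamb1*, *Col18a1*, *Col14a1*, *Col12a1*, *Col8a1*, *Col6a1*, *Col6a2*, *Col6a3* and 5 fibrillar genes. Without it, 7 genes were lower in *MYCN*/*Alk* tumors instead of 3, while the share of all rows called lower was 21.7%, against 21.6% with it. The additional ones were *Col6a3* (-1.17, adjusted p = 0.021), *Col18a1* (-1.05, adjusted p = 0.014), *Col14a1* (-0.89, adjusted p = 0.027) and *Lamb1* (-0.64, adjusted p = 0.019), by limma. Leaving out both this tumor and *MYCN* tumor 22, a choice made after their values were seen, gave 9 lower genes (25.1% of all rows) and took *Col16a1* below the threshold (0.81, adjusted p = 0.084).

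*MYCN* tumor 22 held the highest levels of 3 further type IV chains. *Col4a3*, *Col4a4* and *Col4a5* form the net of the kidney glomerulus. *Col4a3* was 7.22 in this tumor and no higher than 2.25 in any other. *Col4a4* was 8.13 there and at most 3.03 elsewhere. *Col4a5* was 7.15 there, against 4.18 in the next *MYCN* tumor and at most 3.99 in *MYCN*/*Alk* tumors. None of the 3 could be compared between genotypes. Conversely this tumor was the lowest *MYCN* tumor at *Col1a1*, *Col1a2*, *Col3a1*, *Col5a1*, *Col5a2*, *Col5a3*, *Col6a1*, *Col6a2*, *Col6a3* and *Col16a1*. It was also the lowest of them at *Col24a1* (2.72), *Col9a1* (2.75) and *Lama4* (3.82), values under the background limit.

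Each mutation was next set against *MYCN* tumors apart, the 2 comparisons sharing the same 10 *MYCN* tumors. In F1178L tumors 6 of the 26 genes rose (20.1% of all rows tested) and 3 fell (26.4%), with a median of 0.14 against -0.07 for all rows, and 46.5% of all rows were past the threshold in either direction. *Col24a1* rose by 3.69 on the log2 scale (SE 0.57, at least 2.60, adjusted p = 7.7e-06), *Col9a1* by 1.98 (SE 0.38, at least 1.3, adjusted p = 0.00013), *Col8a1* by 1.36 (SE 0.51, adjusted p = 0.03), *Col16a1* by 1.17 (SE 0.42, adjusted p = 0.024), *Col12a1* by 0.85 (SE 0.33, adjusted p = 0.032) and *Col7a1* by 0.70 (SE 0.29, at least 0.27, adjusted p = 0.044), all by limma. *Nid2* fell by 1.06 (SE 0.42, adjusted p = 0.039, by at least 0.61), *Col4a1* by 0.81 (SE 0.32, adjusted p = 0.04) and *Col4a2* by 0.79 (SE 0.31, adjusted p = 0.039), all by limma. Of these 9 genes, *Col24a1* and *Col9a1* kept the call without any 1 tumor. Both had passed the filter only or mostly through *MYCN*/*Alk* tumors, which favors rises, and the filter was not redone without each tumor. *Col16a1* lost the call only without F1178L tumor 31 (1.01, adjusted p = 0.051), and the other 6 each lost it without any of 6 to 13 single tumors. Without *MYCN* tumor 22, *Col12a1* (0.78, adjusted p = 0.054) and *Col8a1* (1.21, adjusted p = 0.055) were no longer past the threshold.

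In the same comparison, in which 20.1% of all rows were higher and 26.4% lower, 3 of 8 fibroblast markers tested were higher (median 1.19). So were 2 of 3 Schwann cell markers (median 1.06) and 4 of 7 neuroblast markers (median 0.67). The other Schwann cell markers on the array could not be tested in any comparison. Lower were 7 of 9 macrophage markers (median -1.01), 5 of 6 endothelial markers (median -1.17) and 7 of 8 pericyte and smooth muscle markers (median -1.39). Their part in the changes of the matrix genes was not tested.

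In R1279Q tumors 2 genes rose (10.8% of all rows tested) and 2 fell (7.04%), with a median of -0.29 against -0.01 for all rows, and 17.9% of all rows were past the threshold in either direction. *Col24a1* rose by 2.86 on the log2 scale (SE 0.58, at least 1.77, adjusted p = 0.0012) and *Col9a1* by 1.5 (SE 0.39, at least 0.81, adjusted p = 0.0085). *Col4a1* fell by 1.14 (SE 0.33, adjusted p = 0.016) and *Col4a2* by 1.10 (SE 0.32, adjusted p = 0.017). All 4 calls, by limma, held without any 1 tumor. For *Col24a1* and *Col9a1* the filter again favored rises and was not redone without each tumor. *Nid2* was at -0.89 (adjusted p = 0.15) and passed without R1279Q tumor 8 (-1.17, adjusted p = 0.035), and without it 7 genes fell in all, with 7.25% of all rows called lower. Of the markers, 4 of 6 endothelial (median -1.04), 6 of 8 pericyte and smooth muscle (median -1.24) and 1 of 9 macrophage genes (median -0.38) were lower, and 1 of 8 fibroblast (median 0.40), 1 of 3 Schwann cell (median 0.44) and 3 of 7 neuroblast genes (median 0.53) were higher. Their part was not tested here either.

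Whether the mutations themselves differed was tested directly. In F1178L against R1279Q, limma called 0 of the 26 genes, whereas 8.53% of all rows were past the threshold, 2.83% higher and 5.7% lower. At an unadjusted p under 0.05 it also called 0, against 27.0% of all rows, and a two-tailed Student's test, run as an alternative, called 0 before and after adjustment. The median difference was 0.32, against -0.06 for all rows tested. Single genes had wide intervals: *Col24a1* differed by 0.83 (95% interval -0.33 to 1.99), *Col9a1* by 0.48 (95% interval -0.30 to 1.27), *Col4a1* by 0.33 (95% interval -0.33 to 0.99), *Col8a1* by 0.69 (95% interval -0.35 to 1.74) and *Col1a1* by 0.84 (95% interval -0.30 to 1.98). With array weights, which give less weight to tumors far from their group, 2 genes were past the threshold, both higher, as were 12.3% of all rows. They were *Col1a1* (1.22, adjusted p = 0.049) and *Lama4* (0.27, adjusted p = 0.045, limma). Within the 9 tumors of 129S2, *Col1a1* (1.93, adjusted p = 0.045) and *Lamc1* (0.97, adjusted p = 0.046) were higher in F1178L tumors, where 28% of all rows were past the threshold. *Col1a1* was under the background limit in some R1279Q tumors of this subset. In the study's table every F1178L mouse of this background was younger than every R1279Q mouse. The R1279Q mice there were all male and the F1178L mice of both sexes. Mutation and age thus cannot be told apart in this subset, nor fully mutation and sex. Within the 9 tumors of 129B6F1 none of the 26 genes passed, and 0% of all rows did. With background as a covariate none of the 26 passed either, and 4.82% of all rows did.

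Background entered the comparison with *MYCN* tumors through subsets of the mutant groups. *Col24a1* was measured 3.66 higher, and at least 2.56, with the 129S2 tumors alone (adjusted p = 4.4e-09) and 2.90 higher, and at least 1.80, with the 129B6F1 tumors alone (adjusted p = 0.0014). *Col9a1* was measured 2.15 higher, at least 1.46 (adjusted p = 1.3e-05), and 1.26 higher, at least 0.57 (adjusted p = 0.035). The *MYCN* tumors in both were the same 10, whose means of these genes were under the background limit. Both genes were thus called by limma with either subset of mutant tumors. No strain is known for those 10 *MYCN* tumors, so that neither comparison stayed within a known background. Genotype and strain may therefore be mixed in both. *Col24a1* had also passed the filter through *MYCN*/*Alk* tumors alone, and *Col9a1* mostly through them, which favors rises. *Col4a1* was at -0.94 (adjusted p = 0.023) with 129S2 and at -0.79 (adjusted p = 0.098) with 129B6F1 tumors, and *Col4a2* at -0.96 (adjusted p = 0.012) and -0.65 (adjusted p = 0.14). *Nid2* was at -0.96 (adjusted p = 0.069) and -0.79 (adjusted p = 0.23), not past the threshold in either. With values under the limit at log2 4, the measured *Nid2* mean of the 129S2 tumors was at least 0.62 below that of *MYCN* tumors, a difference that did not pass. *Col16a1* was called with 129S2 (1.17, adjusted p = 0.011) and not with 129B6F1 tumors (0.82, adjusted p = 0.19), and *Col7a1* the reverse (0.46, at least 0.026, adjusted p = 0.099, and 1.04, at least 0.60, adjusted p = 0.018). *Col6a3* (-1.65, adjusted p = 0.0035), *Lamb1* (-0.75, adjusted p = 0.01) and *Col11a1* (0.91, adjusted p = 0.025) passed by limma with 129S2 tumors and not with 129B6F1 tumors. These subsets hold 9 tumors each, and a difference between the backgrounds was not tested for single genes. With R1279Q tumors of 129S2 alone against *MYCN* tumors, *Lamb1* (-1.11, adjusted p = 0.0073) and *Lama4* (-0.43, adjusted p = 0.039) were lower by limma. *Lamb2* was higher there (0.84, adjusted p = 0.03).

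The genes that process, cross-link, bind and degrade collagens were taken from 5 lists. Of 20 genes for collagen folding and modification 12 were tested. In *MYCN*/*Alk* against *MYCN*, 1 rose and none fell, namely *Plod2*, a lysyl hydroxylase (0.55, SE 0.21, adjusted p = 0.036). Of 16 genes for trimming and cross-linking 7 were tested and 1 fell, *Loxl2*, a lysyl oxidase (-0.73, SE 0.28, adjusted p = 0.038). Of 15 receptors 6 were tested and 1 rose, *Itgb1*, the beta chain shared by the integrins that bind collagens and laminins (0.25, SE 0.08, adjusted p = 0.016). Over all rows tested 40.7% passed in this comparison, and no test of these lists against other rows was made.

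Of 14 other basement membrane proteins 6 were tested and 2 rose: *Agrn*, a heparan sulfate proteoglycan of the nerve-muscle synapse (0.52, SE 0.13, adjusted p = 0.0023), and *Fras1*, which ties epithelium to the tissue beneath in skin (1.61, at least 0.59, adjusted p = 0.02). This was the opposite direction to *Col4a1*, *Col4a2* and *Nid2*. Of 16 genes of matrix breakdown 9 were tested and 3 rose. *Ctsk*, a collagen-cleaving cathepsin, rose by 1.55 (SE 0.39, adjusted p = 0.0021), *Mmp2*, a protease that cuts type IV collagen, by 1.47 (SE 0.32, adjusted p = 0.00064), and *Timp2*, an inhibitor that also helps to activate it, by 0.97 (SE 0.21, adjusted p = 0.0007), all by limma. *Mmp2* ran from 2.85 to 5.11 in *MYCN*, from 4.44 to 6.46 in R1279Q and from 3.98 to 7.35 in F1178L tumors (medians 4.03, 5.87 and 5.59), with overlap between the groups. The median differences of the 5 lists were -0.18, -0.33, -0.08, 0.02 and -0.01, against -0.04 for all rows tested.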

How the data were processed

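Total RNA of 31 tumors was hybridized to Affymetrix mouse arrays. The authors normalized the arrays by GCRMA, which corrects background by probe sequence, with Brainarray probe sets that give 1 row per gene, and deposited log2 values. GCRMA pulls dim genes towards a floor, so that differences near or under log2 4 are compressed. The version of the tool is not given in the sources used here. The log2 values were used as deposited, with the tumor number in each title as its replicate number. Symbols came from the platform table, which named 16464 of 17306 rows with 1 symbol, and 842 rows were left without a name. Array data hold no counts or depth, and the number of tumors sets the precision.

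The 9322 rows with 10 or more tumors above log2 4 were tested with limma 3.58.1 in R 4.3.3, 1 coefficient per genotype, in 4 comparisons, two-sided. Genotypes came from the sample titles, background and sex of 18 tumors from a table of the study. Where the lower group's mean was under log2 4, its values under 4 were set to 4 and the difference given as at least that large. This bounds the measured difference of the means and takes no account of its error. Nothing labels the tumors as separate mice, so that p values measure the spread between these tumors. Relations used 100000 permutations in Python 3.11.15 with scipy 1.17.1. The fit was tested on simulated data. Alternatives were other filters, normalizations, tests and weights, subsets and covariates of background and sex, and leaving out each tumor. The families, their classes, the partner pairs and all gene lists were chosen with earlier results of these data known. Values by genotype are given for genes called in *MYCN*/*Alk* against *MYCN*, up to 6 per class, and their partner chains. Other genes with values in the text, the kidney markers and the pair of tumors left out together were picked after their values were seen.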

Additional observations from a re-analysis of the deposited data

Results flagged for a closer look

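In each of the groups of 10, *MYCN* and R1279Q, the highest and the lowest tumor of every gene above log2 4 in some tumor were compared with their neighbours by Dixon's test at 95%. Of 68 such sets 14 were flagged, all at high values. The test flags about 1 in 20 by chance only where values are independent and normally spread. Some sets here lay at the background floor, where low outliers can hardly arise, and several flags came from the same tumors. Whether the flags exceed chance was therefore not tested. The 11 F1178L tumors were not screened, because the screen was set to groups of at most 10. Tumors that stand apart in that group are therefore not listed.

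R1279Q tumor 8 was far above the other R1279Q tumors at 6 genes: *Col4a2* (10.34, next 8.61), *Nid2* (6.55, next 4.36), *Col18a1* (7.35, next 5.29), *Col6a2* (7.5, next 4.76), *Col5a1* (6.66, next 5.01) and *Col15a1* (3.45, next 2.47, both under the background limit). *MYCN* tumor 22 was far above the other *MYCN* tumors at *Col4a3* (7.22), *Col4a4* (8.13), *Col4a5* (7.15) and *Col27a1* (5.19, next 2.81). *MYCN* tumor 34 was flagged at *Col6a2* (7.03, next 5.44) and at *Col15a1* (3.27, under the limit). R1279Q tumor 19 was flagged at *Col27a1* (5.32, next 4.06) and R1279Q tumor 5 at *Col20a1* (4.90, next 3.30).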

How the results depend on the processing

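Counts of genes past the threshold moved by over 1.5 times under the settings below, and the share of all rows called the same way stands in brackets. In *MYCN*/*Alk* against *MYCN*, 2 genes instead of 4 were higher without a filter (10.1%) or above log2 6 (20.2%), and 10 instead of 3 were lower with array weights (32.3%), 0 with 129B6F1 tumors only (12.9%) and 9 without both tumors that stand apart (25.1%). Without a filter 3 genes were still lower, but *Nid2* was replaced by *Lama5* (-0.063, adjusted p = 0.039, limma), which was under log2 4 in every tumor. *Col7a1* was not called with array weights. In F1178L against *MYCN*, 3 instead of 6 were higher without a filter (11.1%), 2 above log2 6 (20.7%) and 3 with 129B6F1 tumors (10.9%), and 0 instead of 3 were lower without a filter (14.4%) and 1 with 129S2 tumors (26.9%). That 1 gene was *Col6a3* (-1.40, adjusted p = 0.036, limma), while *Col4a1*, *Col4a2* and *Nid2* were not called with 129S2 tumors. With 129B6F1 tumors *Col4a1* and *Col4a2* were called lower in F1178L. In R1279Q against *MYCN*, 1 instead of 2 was higher above log2 6 (12%) and with 129B6F1 tumors (3.78%), and 10 instead of 2 were lower with array weights (18.7%), 6 with 129S2 (6.89%), 0 with 129B6F1 tumors (3.55%) and 8 without both tumors (10.7%). F1178L against R1279Q gave 2 higher genes with array weights (12.3%) and within 129S2 (11.6%). Fewer rows pass the filter at log2 6, and more are adjusted over without one. For the rest the cause was not tested. Leaving out 1 tumor gave 3 to 5 higher and 2 to 7 lower genes in *MYCN*/*Alk*, 3 to 6 and 0 to 3 in F1178L, and 2 to 2 and 2 to 7 in R1279Q against *MYCN*. *Col4a1* and *Col4a2* in F1178L each lost the call without *MYCN* tumor 25, 32, 33, 34 or 35 or F1178L tumor 2, 11, 29, 37 or 38 (adjusted p up to 0.088). The partner relations were 20 of 27 with and without *MYCN* tumor 26.

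Only genes that did not pass turned direction. With 129B6F1 tumors these were *Col11a1* (-0.38), *Col1a1* (0.0082), *Col1a2* (0.21), *Col3a1* (0.12), *Col5a1* (0.084), *Col6a1* (0.11), *Col6a2* (0.056), *Col6a3* (0.086), *Lama4* (0.050), *Lamb1* (0.028) and *Lamc1* (-0.16), and with 129S2 *Col1a2* (0.038) and *Col3a1* (0.23). *Col3a1* was 0.030 with quantile normalization, 0.019 with equal medians and 0.0032 by Student's test, and *Lamc1* -0.022 with array weights and -0.085 without both tumors. Leaving out 1 tumor also turned *Col1a2* (-0.29 to 0.054), *Col3a1* (-0.21 to 0.16) and *Lamc1* (-0.11 to 0.11). No paired analysis was possible because tumor numbers are not shared between the genotypes. Precision is limited by signal over background for *Nid2*, *Col7a1*, *Lama4*, *Col1a1* and the *MYCN* level of *Col24a1* and *Col9a1*.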
